A study of Mus musculus with 20 samples.

Results

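N2A cells, a mouse neuroblastoma line, were scanned once with a single pulsed laser at the high intensity condition I2-E2 and set against unexposed negative control (NC) cells. The comparison holds 6 of the 20 RNA-seq libraries of the series, 3 of I2-E2 and 3 of NC. All 6 carry the mark B1 in their titles, read here as batch 1, and the titles do not say what a batch is. I2-E2 cells received 100 mW at 796 nm through a 20X objective (numerical aperture 0.75), which is an average intensity of 238.58 mW/µm2 and a fluency (energy per area) of 47.72 J/cm2 at a pixel-dwelling time of 2 µs. The other exposed groups of that batch, 3 libraries each, are used where a difference is traced across settings. All 3 received 20 mW, or 47.72 mW/µm2. I0-E0 was scanned at 2 µs per pixel (9.54 J/cm2), I0-E2 at 10 µs (47.72 J/cm2, the fluency of I2-E2) and I0-E4 at 20 µs (95.43 J/cm2). Whole wells were scanned and lysed 1 h after exposure, and 3 NC wells kept under like conditions without the laser were lysed together with them. No genotype, drug or age differs between these groups, and all of them are 1 cell line. Replicates carry a number in the labels, and no source says that the wells of a group were seeded from separate cultures, so the p-values measure the spread between these libraries, which may be technical.

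The comparison asks whether an intense near-infrared scan alters transcript levels within the first hour. As background, light absorbed by a cell can heat it, generate reactive oxygen species and damage membranes or DNA, and each of these has a known early transcriptional answer. Immediate-early genes such as Fos and Egr1 respond to MAP kinase signalling within minutes. Heat shock factor 1 drives chaperones, NRF2 drives antioxidant enzymes, the integrated stress response works through ATF4, and p53 drives genes such as Cdkn1a and Mdm2.

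Counts estimated by Salmon per transcript were added up to genes. Of 34162 genes, 12302 had enough counts to be compared, and of 106003 annotated transcripts, 32228. The total estimated count was 7298229, 5808532 and 8417609 in the I2-E2 libraries, against 8322567, 8257765 and 6460014 in the NC libraries. I2-E2 replicate 2 had the lowest total and stood apart. The chi-square of the counts per gene was 4.13 between it and I2-E2 replicate 1, 11.2 between it and replicate 3, and 6.02 to 10.1 between it and the NC libraries. It was 5.4 between I2-E2 replicates 1 and 3, 2.88 to 4.87 between these and the NC libraries, and 2.48 to 3.11 within NC. Short transcripts were over-represented in it. In the eighth of genes with the shortest transcripts, its median difference from the NC mean was 0.24 on the log2 scale. The same median was 0.10 in I2-E2 replicate 1 and -0.07 in replicate 3, and it lay between -0.04 and 0.03 in the NC libraries. The N2A identity genes summed to 4302 to 4436 TPM in I2-E2 and to 4195 to 4356 TPM in NC. Marker lists of other cell types (fibroblast, macrophage, epithelial, endothelial, glial and erythroid) summed to at most 21.6 TPM in any I2-E2 library and 19.0 TPM in any NC library.

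The level of a gene was within a narrow range of its unexposed level for most genes. The edgeR quasi-likelihood test called 0 of 12302 genes at an adjusted p of 0.05 (0%), and the smallest adjusted p was 0.595. At an unadjusted p under 0.05 it gave 886 genes (7.2%), of which 473 were higher (3.84%) and 413 were lower (3.36%) in I2-E2. limma-voom, limma-trend and DESeq2 also called 0 genes at an adjusted p of 0.05, with 855, 914 and 635 at an unadjusted p under 0.05. With no minimum count at all, edgeR called 158 genes. Of these, 146 also passed the filter of the main fit, and 106 share sequence with other genes, beside 2768 of the 12302 genes tested. That fit had infinite prior degrees of freedom (the weight of the spread shared over genes), against 7.02 in the main fit. The part of this in the 158 calls was not tested. Without NC replicate 1 edgeR called 2, the predicted genes Gm2436 and Gm2446. Without I2-E2 replicate 2 or 3 it called 0 and gave 598 and 1757 genes at an unadjusted p under 0.05. The 3 I2-E2 libraries lay above all 3 NC libraries for 766 genes (6.23%) and below all 3 for 719 genes (5.84%). The log2 fold change was above 0 for 6296 genes (51.2%).

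The same fit gives the size of change that each gene could still have had. For 9263 genes (75.3%) the whole 95% interval of the fold change lay within 1.5-fold of no change, and for 10759 genes (87.5%) it lay within 2-fold. Among the 9081 genes with a mean of at least 10 CPM (counts scaled to a common library size), the share within 1.5-fold was 95.6%. The median standard error was 0.11 and the median absolute log2 fold change was 0.094. The estimate itself was beyond 1.5-fold for 513 genes, whose median level was 1.66 CPM, against 32.9 CPM over all genes tested. Of these 513 genes, 178 had I2-E2 and NC libraries that did not overlap, beside 1485 of the 12302 genes tested. The 513 were chosen by the size of the fold change on these same libraries, so the separation goes with the choice. Of the 513, 250 share sequence with other genes, beside 2768 of the 12302 genes tested, so that some of their reads can be split between genes. The plot of fold change against level shows the spread narrowing as the level rises.

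**Figure D1:**
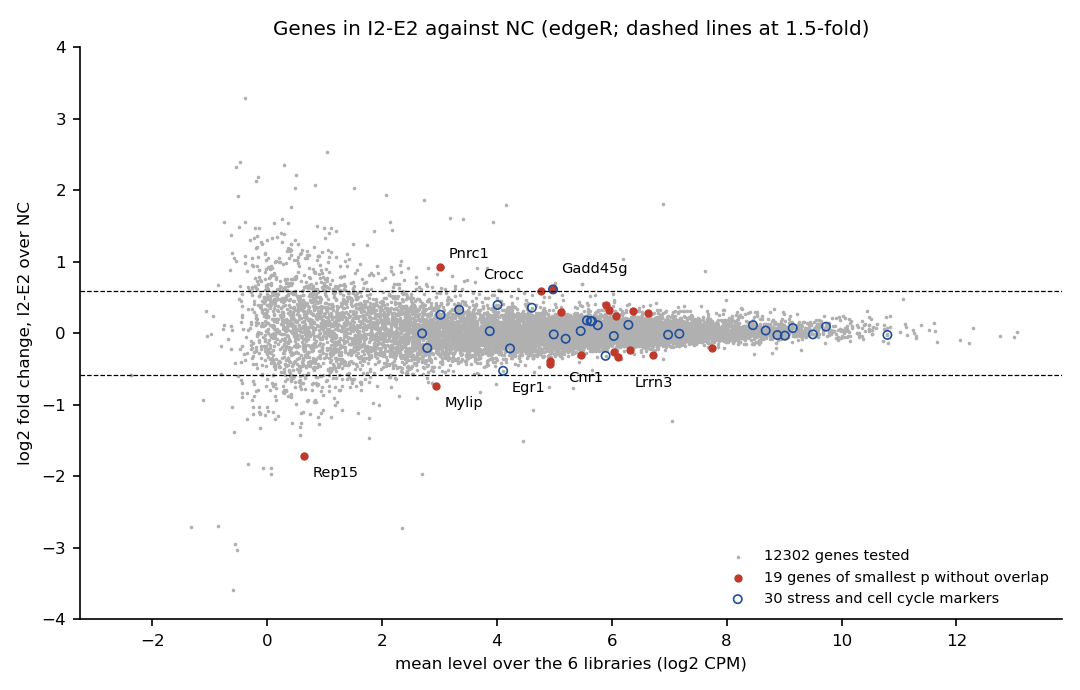
Log2 fold change of I2-E2 over NC (vertical axis, edgeR) against mean log2 CPM over the 6 libraries (horizontal axis) for 12302 genes, with 1.5-fold dashed. Filled points are 19 genes of smallest p without overlap, open circles are the 30 tested stress and cell cycle markers, most of them between the dashed lines, and 11 genes lie beyond the vertical axis.

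None of the genes named next passed the adjusted threshold in the main fit. They come from the 10 in each direction with the smallest unadjusted p whose groups did not overlap, so the separation of the groups was part of the choice. In the edgeR fit with no minimum count, some of them passed, Crocc, Pnrc1, Lrrn3 and Mylip among them. Crocc, the gene of rootletin, a fibre protein that anchors cilia and links centrosomes (chromosome 4, GRCm38 141016637 to 141060550, minus strand), was at 32.4, 32.7 and 32.9 CPM in I2-E2, against 19.8, 19.4 and 26.6 CPM in NC. Its I2-E2 libraries were nearly equal while NC replicate 3 was above the other NC libraries. The log2 fold change was 0.58 (SE 0.12, edgeR adjusted p = 0.595).

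Pnrc1, a nuclear receptor coactivator (chromosome 4, 33245423 to 33290163, minus strand), had the largest fold change of the genes named on the higher side. It was at 10.8, 10.1 and 10.5 CPM in I2-E2, against 4.33, 4.72 and 7.73 CPM in NC, a log2 fold change of 0.93 (SE 0.22). Here too NC replicate 3 was the NC library nearest to the exposed ones. Gadd45g, a member of the growth arrest and DNA damage family (chromosome 13, 51846678 to 51848468, plus strand), was at 39.0, 43.2 and 32.1 CPM in I2-E2, against 23.3, 22.6 and 28.8 CPM in NC, a log2 fold change of 0.61 (SE 0.15). Its lowest I2-E2 library stood just above its highest NC library.

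The other genes on the higher side were more abundant and differed less. Lmnb2, a lamin gene, was at 93.0, 88.7 and 93.8 CPM in I2-E2, against 74.6, 67.9 and 80.2 CPM in NC (log2 fold change 0.31, SE 0.068). Mcam, a cell adhesion molecule of the immunoglobulin superfamily, was at 37.9, 37.5 and 39.3 CPM in I2-E2, against 29.6, 32.2 and 31.5 CPM in NC (0.30, SE 0.073). Csnk1g2 (a casein kinase 1 isoform), Cpsf4 (a subunit of the polyadenylation complex) and Tcf3 (the E2A transcription factor) had log2 fold changes of 0.27, 0.32 and 0.24. Safb2, a nuclear scaffold attachment factor, had 0.39 and is uncertain, since only 92.1% of its 31-base words occur in no other gene.

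On the lower side, Lrrn3, a leucine-rich repeat membrane protein of neurons (chromosome 12, 41451668 to 41486431, minus strand), had the smallest p of all genes. It was at 58.6, 60.4 and 62.9 CPM in I2-E2, against 74.7, 78.3 and 77.5 CPM in NC, a log2 fold change of -0.34 (SE 0.067, edgeR adjusted p = 0.595). Both groups were tight and the gap between them was wider than either range. Mylip, an E3 ubiquitin ligase that targets the LDL receptor (chromosome 13, 45389742 to 45412022, plus strand), was at 5.28, 5.15 and 6.63 CPM in I2-E2, against 9.02, 9.08 and 10.8 CPM in NC (log2 fold change -0.74, SE 0.16).

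Nabp1, a single-stranded DNA binding protein, was at 23.0, 27.9 and 27.1 CPM in I2-E2, against 37.9, 35.2 and 31.5 CPM in NC (log2 fold change -0.43, SE 0.099). Cnr1, the cannabinoid receptor of neurons, was at 56.4, 59.3 and 62.1 CPM in I2-E2, against 74.1, 73.7 and 66.5 CPM in NC (-0.27, SE 0.063). Emc3, a subunit of the endoplasmic reticulum membrane complex, was at 71.9, 73.4 and 73.7 CPM in I2-E2, against 86.7, 87.1 and 84.7 CPM in NC (-0.24, SE 0.061). Fam84b and Fem1b, a substrate receptor of a cullin ubiquitin ligase, both had -0.30. Rep15, a Rab15 effector, had the largest fitted difference of the genes named here, -1.72 (SE 0.43), at a very low level of 0.56, 0.89 and 0.71 CPM in I2-E2, against 1.44, 2.66 and 3.09 CPM in NC. Rep15 and Ints5 (-0.40) share sequence with other genes and are uncertain, and AC149090.1 (-0.21) lies on an unplaced scaffold and has no value for this. The plot of these genes by library shows the separation and its size.

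**Figure D2:**
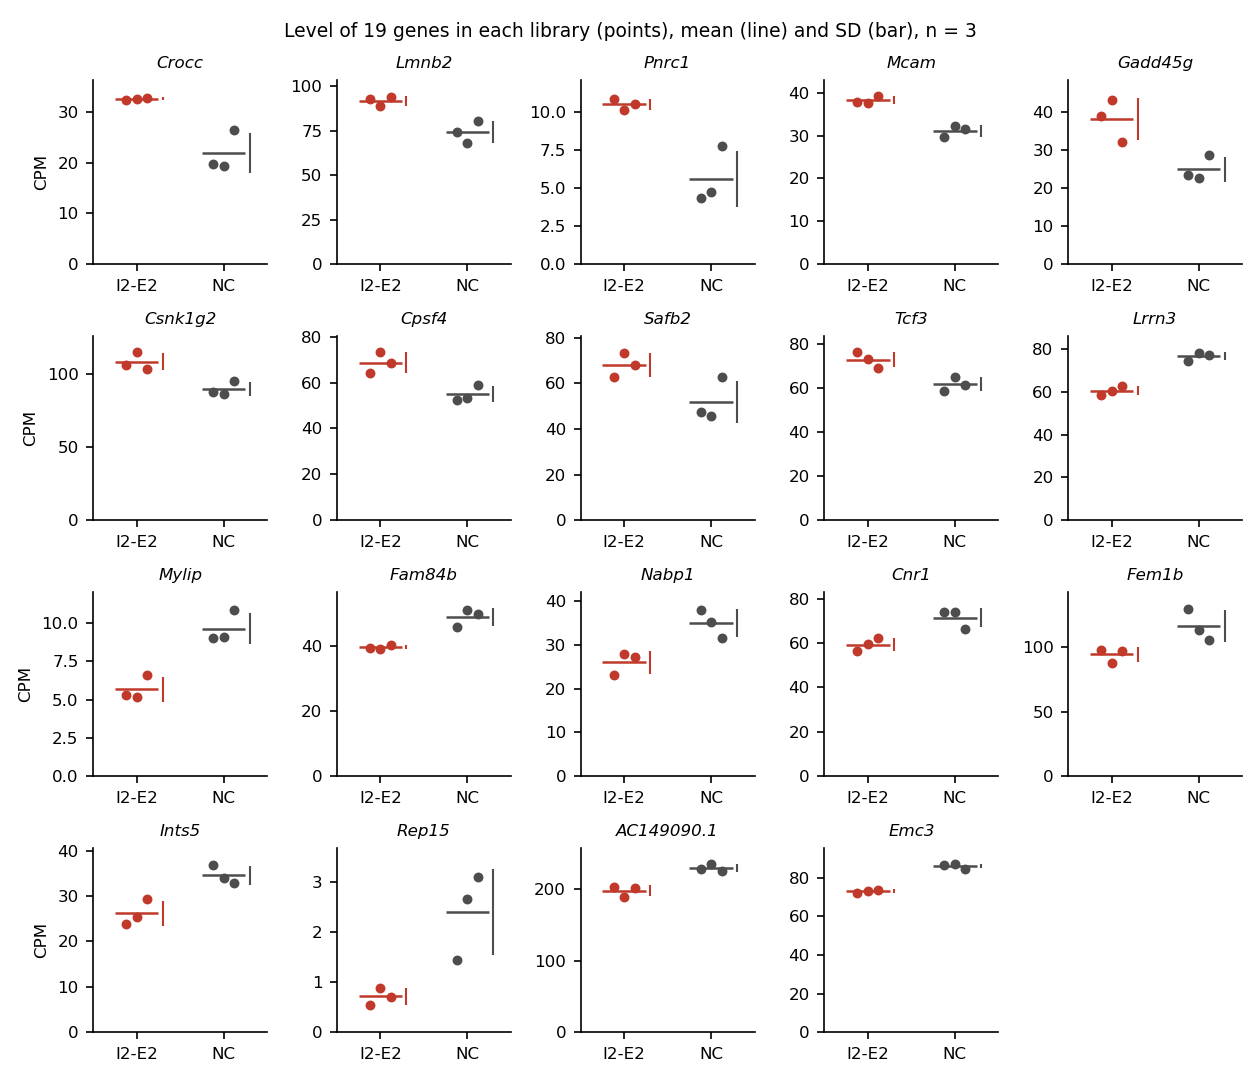
Level in CPM (vertical axes from 0) of 19 genes in each of the 3 I2-E2 libraries and each of the 3 NC libraries, with the group mean as a line and the SD as a bar. The panels read from the 9 genes higher in I2-E2 to the 10 lower, from Crocc at 32.4 to 32.9 CPM against 19.4 to 26.6 CPM to Emc3 at 71.9 to 73.7 CPM against 84.7 to 87.1 CPM.

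These differences were then set beside the exposures at lower intensity. I2-E2 and I0-E2 share the fluency and differ in intensity and dwelling time. Between them edgeR called 0 genes at an adjusted p of 0.05 (0%) and gave 646 genes at an unadjusted p under 0.05 (5.25%), with 329 higher and 317 lower. I2-E2 and I0-E0 share the dwelling time and differ in intensity and fluency, and there edgeR called 0 genes (0%) and gave 753 at an unadjusted p under 0.05 (6.12%), with 341 higher and 412 lower. Other tools were not run on these 2 contrasts. Safb2 had the smallest p of the first contrast (log2 difference 0.54, adjusted p = 0.310). In the second it was Fam220a (-0.82, adjusted p = 0.069), which shares sequence with other genes and is uncertain.

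Of these genes, Pnrc1 kept its size against both lower intensity groups, with log2 differences of 0.98 from I0-E2 (adjusted p = 0.576) and 0.82 from I0-E0 (adjusted p = 0.617). Against NC it had 0.11 in I0-E0, -0.05 in I0-E2 and 0.26 in I0-E4. Nabp1 had -0.44 from I0-E2 and -0.36 from I0-E0, and against NC it had -0.07 in I0-E0, 0.01 in I0-E2 and -0.27 in I0-E4, beside -0.43 in I2-E2. Crocc had 0.41 from I0-E2 and 0.40 from I0-E0, and against NC it had 0.18 in I0-E0, 0.17 in I0-E2 and 0.55 in I0-E4. For Lrrn3 the values against NC were -0.19 in I0-E0, -0.18 in I0-E2 and -0.34 in I0-E4, beside -0.34 in I2-E2. Other named genes differed less from the lower intensity groups than from NC. Lmnb2 had 0.16 from I0-E2 and 0.05 from I0-E0, beside 0.31 from NC. Csnk1g2 had 0.08 from each, beside 0.27, and Emc3 had -0.18 and -0.07, beside -0.24. Mylip kept more of its size, with -0.46 and -0.60, beside -0.74. All 4 exposures are set against the same 3 NC libraries, and the part of those libraries in what the exposures share was not tested. edgeR gave 414, 412 and 976 genes at an unadjusted p under 0.05 for I0-E0, I0-E2 and I0-E4 against NC, with 0 called in each.

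The stress and cell cycle markers were examined next. Of 32 markers, 30 had enough counts, and their log2 fold changes in I2-E2 ranged from -0.53 for Egr1 to 0.61 for Gadd45g. The estimate was above 0 for 16 of them and below 0 for 14, and for 24 of the 30 the 95% interval lay within 1.5-fold of no change. At an unadjusted p under 0.05 there were 5, beside 7.2% of all genes. Groups did not overlap for 7, with 3 higher and 4 lower, beside 6.23% and 5.84% of all genes. The inducible heat shock genes Hspa1a and Hspa1b were not tested. Hspa1a had 0 counts in all 6 libraries and Hspa1b had at most 1, but only 34.6% and 31.997% of the 31-base words of these genes occur in no other gene.

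Chaperone genes lay close to NC. Hsph1, an HSP110 chaperone, was at 476.9, 448.5 and 476.9 CPM in I2-E2, against 491.3, 473.6 and 465.5 CPM in NC (log2 fold change -0.03, 95% interval -0.13 to 0.07). Hspa8, which shares sequence with other genes and is uncertain, had -0.03 (-0.13 to 0.08) and Dnajb1, a cochaperone strongly induced by heat, had -0.04 (-0.23 to 0.15). For each list, the count at an unadjusted p under 0.05 stands against 3.84% of all genes higher and 3.36% lower. Over the heat shock list, 16 of 29 tested genes were above NC and 28 had an interval within 1.5-fold. At an unadjusted p under 0.05, 0 were higher and 2 were lower, Chac1 at -0.28 and Hspa4l at -0.12. Chac1 is also a member of the unfolded protein and integrated stress list below and is counted in both.

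Antioxidant genes driven by NRF2 did not move alike in the 3 I2-E2 libraries. Of 36 tested, 24 were above NC, and 34 had an interval within 1.5-fold. The median log2 fold change was 0.04, against 0.004 over all genes. It was 0.03 with the trend over transcript length removed from the fold changes. The median difference of the list from the NC mean was 0.07, 0.08 and -0.04 in I2-E2, against -0.02 to 0.01 in NC, so I2-E2 replicate 3 was below every NC library. At an unadjusted p under 0.05 there were 3 higher and 0 lower, beside 3.84% and 3.36% of all genes. Sqstm1, an autophagy receptor, was at 281.7, 282.3 and 261.3 CPM in I2-E2, against 241.3, 235.8 and 252.0 CPM in NC (log2 fold change 0.18, SE 0.070). The lowest I2-E2 library was just above the highest NC library. The others were the superoxide dismutases Sod1 (0.29) and Sod2 (0.14), both sharing sequence with other genes. Hmox1, heme oxygenase 1, was at 51.8, 56.3 and 49.5 CPM in I2-E2, against 47.1, 44.1 and 49.0 CPM in NC (0.17, 95% interval -0.01 to 0.35). The glutathione and quinone genes Gclm and Nqo1 had -0.02 and -0.21, and Txnrd1 had 0.03. Gclm shares sequence with other genes.

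Genes of the unfolded protein and integrated stress responses gave no single direction. Of 39 tested, 22 were above NC, 38 had an interval within 1.5-fold, and 2 in each direction were at an unadjusted p under 0.05, beside 3.84% and 3.36% of all genes. Without overlap of the groups 1 was higher and 7 were lower, beside 6.23% and 5.84% of all genes, while the median was 0.02. The genes at an unadjusted p under 0.05 were Ddit4, an inhibitor of mTORC1 (0.24), and Cebpb (0.47) on the higher side. On the lower side they were Chac1 and Mthfd2 (-0.12). The groups overlapped for Cebpb. Atf4 itself was at 579.4, 625.8 and 542.4 CPM in I2-E2, against 565.7, 556.7 and 541.6 CPM in NC, and the ranges overlapped. Its target Ddit3, which encodes CHOP, was at 18.0, 16.9 and 17.2 CPM in I2-E2, against 20.1, 21.2 and 19.2 CPM in NC (log2 fold change -0.22, 95% interval -0.46 to 0.03).

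The p53 and DNA damage list gave 4 of 32 tested genes higher and 1 lower at an unadjusted p under 0.05, beside 3.84% and 3.36% of all genes, and its median was 0.02. Gadd45g and Gadd45a (0.39), Ccng2 (0.33) and Cdkn2a (0.30) were those higher, and Rrm2b (-0.22) was the one lower. The direct p53 targets Cdkn1a and Mdm2 lay at the NC level. Cdkn1a, which encodes p21, was at 41.8, 44.2 and 47.1 CPM in I2-E2, against 43.9, 42.5 and 44.4 CPM in NC (log2 fold change 0.03, 95% interval -0.12 to 0.17). Mdm2, the ubiquitin ligase of p53, was at 147.5, 139.7 and 145.3 CPM in I2-E2, against 144.9, 143.4 and 147.3 CPM in NC (-0.01, -0.13 to 0.11).

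Immediate-early genes and feedback regulators of MAP kinase signalling gave 2 of 40 tested genes higher and 6 lower at an unadjusted p under 0.05, beside 3.84% and 3.36% of all genes. Counted without overlap of the groups the balance was the other way, with 7 higher and 5 lower, beside 6.23% and 5.84% of all genes. Dusp1, a phosphatase of MAP kinases, was at 27.9, 24.7 and 29.4 CPM in I2-E2, against 21.05, 20.6 and 22.9 CPM in NC (log2 fold change 0.35, SE 0.10), and Jund had 0.24. Dusp6, a phosphatase specific for ERK, was at 58.3, 47.1 and 53.03 CPM in I2-E2, against 75.4, 61.8 and 60.8 CPM in NC (-0.32, SE 0.094). Both phosphatases had groups without overlap, in opposite directions. Egr1 was at 16.7, 14.7 and 11.1 CPM in I2-E2, against 18.4, 21.4 and 21.2 CPM in NC (-0.53, SE 0.16), and the others lower were Spry4 (-0.40), Klf4 (-0.30), Spred1 (-0.17) and Myc (-0.16). Fos itself was low, at 7.36, 6.57 and 5.56 CPM in I2-E2, against 6.25, 7.02 and 6.18 CPM in NC (-0.01, 95% interval -0.35 to 0.34). The median of the list was -0.02, and without I2-E2 replicate 2 it was 0.01. None of these genes passed the edgeR threshold. In I0-E4 against NC, Egr1, Dusp1 and Dusp6 had log2 fold changes of -0.61, 0.375 and -0.325, as large as in I2-E2. In I0-E0 they had -0.33, 0.11 and -0.02, and in I0-E2 -0.22, 0.22 and -0.14.

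Cell cycle genes differed little. Of 46 S phase genes, 28 were above NC, with 4 higher and 1 lower at an unadjusted p under 0.05, led by E2f1 (0.20) and by Prim1, a primase subunit (-0.15), and 45 had an interval within 1.5-fold. Of 42 genes of G2 and mitosis, 13 were above NC, with 0 higher and 1 lower, Cenpe (-0.17), and all 42 had an interval within 1.5-fold. Mki67 and Ccnb1, markers of proliferating and mitotic cells, had -0.02 and -0.04, and Ccnb1 shares sequence with other genes.

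Sterol and fatty acid genes lay mostly below NC. Of 24 cholesterol synthesis genes, 5 were above NC and the median was -0.09, with 0 higher and 3 lower at an unadjusted p under 0.05, beside 3.84% and 3.36% of all genes. Those were Nsdhl (-0.38), Dhcr7 (-0.21) and Srebf2 (-0.20), the transcription factor of the pathway. Of 14 fatty acid synthesis and desaturation genes, 3 were above NC, and 0 were higher and 3 lower at an unadjusted p under 0.05, Scd2 (-0.23), Elovl1 (-0.28) and Elovl6 (-0.16). Scd2, a desaturase, was at 582.4, 563.9 and 595.8 CPM in I2-E2, against 728.2, 683.4 and 635.0 CPM in NC, and 93.2% of its words are its own. The median of the fatty acid list was -0.06, or -0.03 with the length trend removed, and by library the median difference from the NC mean was -0.02, -0.18 and -0.04 in I2-E2, against 0.08, 0.002 and -0.08 in NC. NC replicate 3 was thus below I2-E2 replicates 1 and 3. The median of the cholesterol list lay between -0.12 and -0.08 when any 1 I2-E2 library was left out. By library its median difference from the NC mean was -0.04, -0.07 and -0.10 in I2-E2, against 0.04, 0.02 and -0.06 in NC. NC replicate 3 was below I2-E2 replicate 1 here. Against NC the median of this list was -0.01 in I0-E0, -0.09 in I0-E2 and -0.04 in I0-E4. The median difference of I2-E2 was 0.01 from I0-E2 and -0.07 from I0-E0.

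The cold-inducible and SR splicing factor list had 22 of 25 tested genes above NC, beside 51.2% of all genes. By library the median difference from the NC mean was 0.06, 0.21 and 0.06 in I2-E2, against -0.06, 0.01 and 0.08 in NC, so NC replicate 3 was above I2-E2 replicates 1 and 3. Groups did not overlap for 2 higher and 0 lower, beside 6.23% and 5.84% of all genes. Of the 25, 6 were higher and 0 lower at an unadjusted p under 0.05, beside 3.84% and 3.36% of all genes, namely Srsf5 (0.24), Snrnp70 (0.36), Cirbp (0.43), Sfpq (0.19), Srsf4 (0.18) and Srsf2 (0.15). Cirbp, an RNA-binding protein that increases in the cold, was at 53.9, 56.1 and 38.7 CPM in I2-E2, against 33.9, 35.5 and 40.4 CPM in NC, so I2-E2 replicate 3 fell inside the NC range. Snrnp70, a subunit of the U1 spliceosomal particle, was at 319.8, 378.8 and 323.6 CPM in I2-E2, against 234.6, 245.3 and 318.5 CPM in NC. NC replicate 3 was just below the lowest I2-E2 library. The median of the list was 0.08, or 0.05 without I2-E2 replicate 2.

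Lists of short, abundant housekeeping transcripts lay above NC in I2-E2 replicates 1 and 2 and below it in replicate 3. Above NC were 28 of 32 proteasome subunits, 67 of 81 cytosolic ribosomal protein genes and 63 of 74 nuclear oxidative phosphorylation subunits, with a median of 0.10 in each list. Without I2-E2 replicate 2 the medians were 0.03, -0.01 and 0.02. With the length trend removed from the fold changes they were 0.04, 0.02 and 0.03. Of the ribosomal protein genes tested, 80 share sequence with other genes. Among all genes, 1093 of the 1538 with the shortest transcripts were above NC, and 493 of the 1538 with the longest. The part of transcript length in these medians was not tested. The plot of lists and length shows I2-E2 replicate 2 at one end and replicate 3 at the other.

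**Figure D3:**
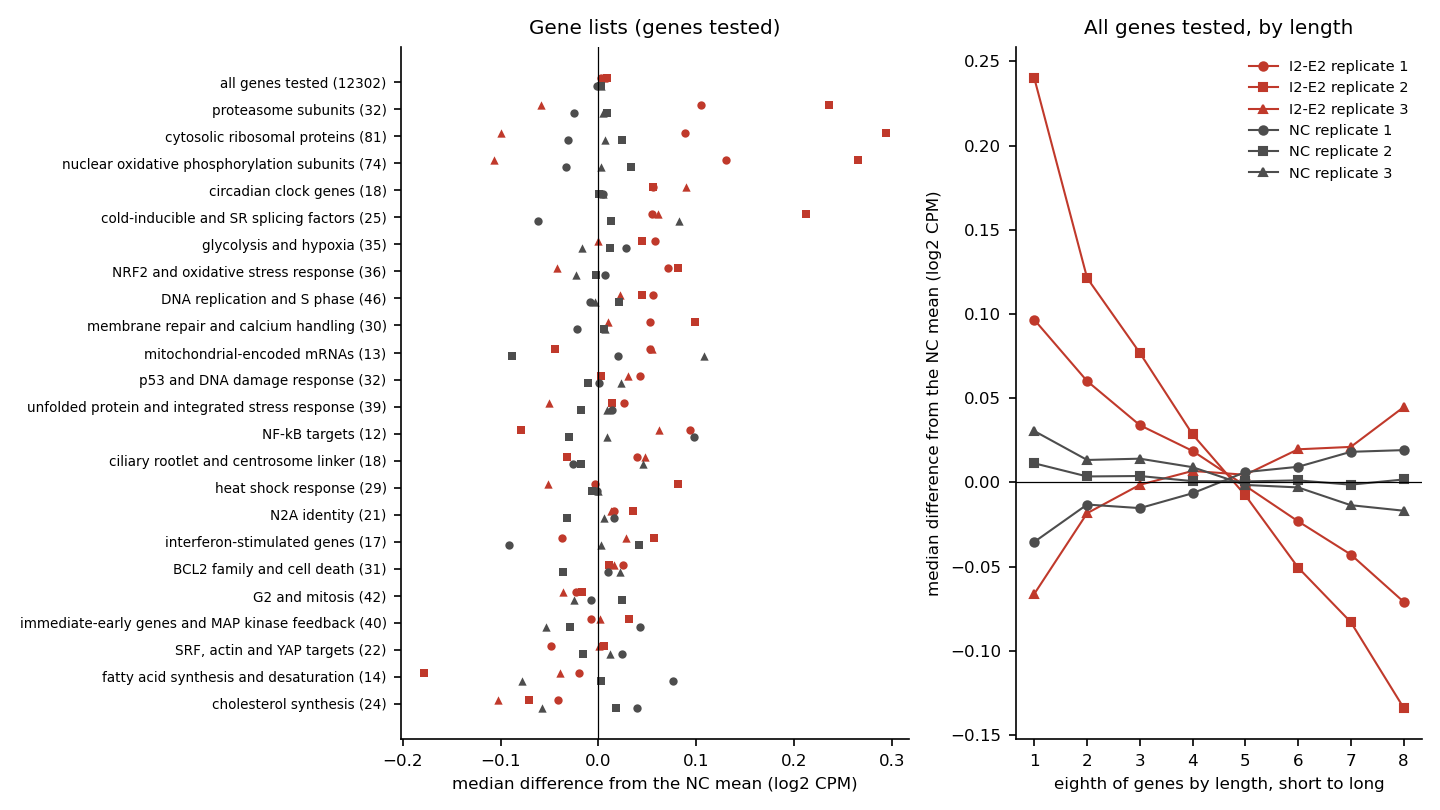
Left, median difference of each I2-E2 and NC library from the NC mean (log2 CPM) over the tested genes of each list, and right, the same median over all genes in eighths by transcript length. I2-E2 replicate 2 runs from 0.24 in the shortest eighth to -0.13 in the longest, replicate 3 from -0.07 to 0.04, and the NC libraries stay between -0.04 and 0.03 on the right.

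Glycolysis and hypoxia genes had 5 of 35 higher at an unadjusted p under 0.05, among them Slc2a1, the glucose transporter GLUT1 (0.23), and 1 lower, Gapdh (-0.15), beside 3.84% and 3.36% of all genes. Groups did not overlap for 8 higher and 1 lower, beside 6.23% and 5.84% of all genes, and the median of the list was 0.04, or -0.001 with the length trend removed. Membrane repair and calcium handling had 2 of 30 higher, both subunits of the ESCRT-III complex, Chmp4b (0.34) and Chmp2a (0.26), and 0 lower. Neither had groups apart. NF-kB targets had 0 of 12 and interferon-stimulated genes 1 of 17, Bst2 (0.36), at an unadjusted p under 0.05. Of the other lists, 9 of 13 mitochondrial-encoded mRNAs, 12 of 18 clock genes, 9 of 18 rootlet and centrosome linker genes and 3 of 6 metallothionein and metal response genes were above NC. Per1, a clock gene, had 0.31. Among N2A identity genes, Nes, which encodes the intermediate filament nestin, was at 47.8, 62.5 and 53.03 CPM in I2-E2, against 45.0, 37.4 and 41.3 CPM in NC (log2 fold change 0.39, SE 0.11), Prph (peripherin) had 0.21, and Isl1, a neuronal homeobox factor, had -0.32. Of 22 SRF, actin and YAP targets, 9 were above NC and 13 below, with a median of -0.04. Groups did not overlap for 1 higher and 3 lower, beside 6.23% and 5.84% of all genes. At an unadjusted p under 0.05 there was 1 lower, Actb (-0.14), which shares sequence with other genes, and 1 higher, Axl, a receptor tyrosine kinase. Axl had the largest fitted value of any list member at that p (1.55, SE 0.62). It was at 0.83, 0.53 and 1.30 CPM in I2-E2, against 0.24, 0.36 and 0.31 CPM in NC, which is a few counts per library. Of the list members named, Rrm2b, Elovl6, Srsf5, Sfpq, Chmp2a and Gapdh also share sequence with other genes, which leaves their values uncertain.

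At the level of single transcripts, 1 of 32228 passed the edgeR threshold (0.0031%), and 1584 had an unadjusted p under 0.05 (4.91%), of which 677 were higher and 907 lower. It was Map7d2-201. Map7d2 encodes a microtubule-associated protein of the MAP7 family, which in mouse is expressed in neurons and works with the motor kinesin-1. The gene lies on chromosome X, 159414572 to 159498757, plus strand. Map7d2-203 starts at 159414572 and Map7d2-201 starts 44553 bases downstream, at 159459125, within the gene. The transcripts also differ in coding sequence. Map7d2-203 holds 99 bases (33 codons) at chrX:159460267-159460365 of GRCm38, plus strand, that Map7d2-201 skips. The sequences show where the reads of the pair can be told apart. In Map7d2-203 the capitals mark the bases that Map7d2-201 lacks, and in Map7d2-201 they mark the bases on either side of the joint.
Map7d2-203: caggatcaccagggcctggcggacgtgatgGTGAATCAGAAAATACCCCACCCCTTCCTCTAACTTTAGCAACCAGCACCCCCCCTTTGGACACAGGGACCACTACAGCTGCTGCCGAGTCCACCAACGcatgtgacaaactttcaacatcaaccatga
Map7d2-201: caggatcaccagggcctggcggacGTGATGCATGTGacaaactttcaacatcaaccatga

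Because the pair starts so far apart, the bases before each start are shown too, as RefSeq gives them for GRCm38.p6, both on the plus strand. The first run lies at chrX:159414342-159414491 and ends 80 bases before the start of Map7d2-203, and the second lies at chrX:159458975-159459124, directly before that of Map7d2-201.
upstream of the Map7d2-203 start: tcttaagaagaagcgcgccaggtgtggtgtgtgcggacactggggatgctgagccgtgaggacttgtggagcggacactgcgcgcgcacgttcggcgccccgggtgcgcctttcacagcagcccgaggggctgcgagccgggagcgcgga
upstream of the Map7d2-201 start: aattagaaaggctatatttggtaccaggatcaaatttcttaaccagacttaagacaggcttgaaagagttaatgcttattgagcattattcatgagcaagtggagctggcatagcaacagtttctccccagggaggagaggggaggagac
The 250 bases before these starts differ in base composition. G and C made up 69.2% of the window for Map7d2-203, above 89.6% of the 32851 RefSeq windows, and 37.2% of the window for Map7d2-201, above 7.31% of them. Neither window holds the TATA box searched as TATAAA, which 12.4% of all windows hold on either strand. The GC box searched as GGGCGG, in 32.7% of windows, and the CCAAT box, in 33.9%, were also not in these letters.

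Map7d2-201 fell in I2-E2. Its estimated counts were 76, 45 and 54 in I2-E2, against 354, 309 and 297 in NC. In CPM these were 10.6, 7.86 and 6.35 in I2-E2, against 43.6, 37.6 and 45.7 in NC. Every I2-E2 library was far below every NC library, and the spread within each group was small beside the gap. The log2 fold change was -2.35 (SE 0.25, 95% interval -2.91 to -1.80, edgeR adjusted p = 0.0218).

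The lower intensity groups lay between. The counts of Map7d2-201 were 135, 108 and 221 in I0-E0, 178, 190 and 179 in I0-E2 and 95, 75 and 88 in I0-E4. Against the same 3 NC libraries the log2 fold changes were -1.09 in I0-E0 (adjusted p = 1), -0.90 in I0-E2 (adjusted p = 1) and -1.70 in I0-E4 (edgeR adjusted p = 0.389). I2-E2 was 1.45 log2 units below I0-E2 at the same fluency, which did not pass (log2 difference -1.45, SE 0.25, edgeR adjusted p = 0.474), and neither did the difference from I0-E0 (-1.27, SE 0.25, adjusted p = 0.612).

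The gene as a whole did not follow its transcript. Summed over transcripts, the log2 fold change of Map7d2 was 0.14 (SE 0.086, edgeR adjusted p = 0.736). Map7d2-203 was at 148.5, 149.9 and 120.0 CPM in I2-E2, against 91.5, 98.5 and 96.6 CPM in NC, a log2 fold change of 0.54 (SE 0.082, adjusted p = 0.175). Map7d2-204, which starts between them, had 0.23 (SE 0.18). As shares of the gene, Map7d2-201 took 5.47%, 3.96% and 4.20% of the counts in I2-E2, against 26.5%, 23.6% and 26.3% in NC. Map7d2-203 took 76.8%, 75.8% and 78.9% in I2-E2, against 55.6%, 61.7% and 55.6% in NC, so the share lost by one was about the share gained by the other. The plot of the 3 transcripts shows the groups in one order for Map7d2-201 and in the reverse order for Map7d2-203.

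**Figure D4:**
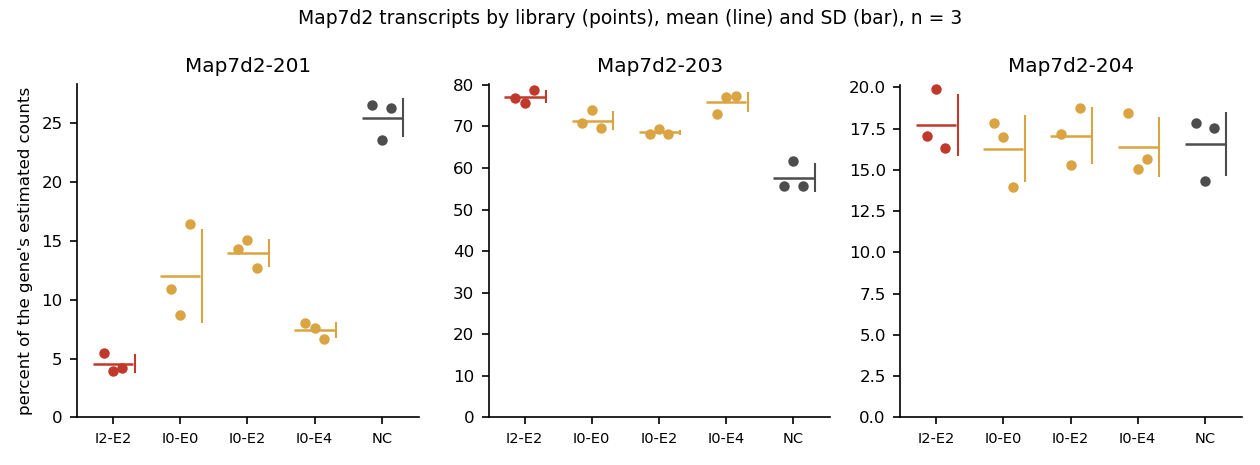
Percent of the estimated counts of Map7d2 (vertical axes from 0) given to each of its 3 tested transcripts in each library, with the mean as a line and the SD as a bar (n = 3 libraries per group). Map7d2-201 was at 3.96% to 5.47% in I2-E2 and at 23.6% to 26.5% in NC, with the lower intensity groups between, and Map7d2-203 ran the opposite way.

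The measurement has limits. None of the 31-base words of Map7d2-201 is found in it alone, against 21.1% for Map7d2-203, so its counts rest on how Salmon divided reads that also match its neighbours. The call was kept with other scalings, with limma-voom and limma-trend and without I2-E2 replicate 1, NC replicate 1 or NC replicate 2, and it was lost without I2-E2 replicate 2 (log2 fold change -2.32, edgeR adjusted p = 0.079), I2-E2 replicate 3 (-2.19, adjusted p = 0.073) or NC replicate 3 (-2.30, adjusted p = 0.077) and when the 6 libraries were fitted alone (-2.35, adjusted p = 0.355). DESeq2 called 116 transcripts, Map7d2-201 among them, of which 69 had at least 1 of the 6 libraries at 0.

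The next transcripts by p show the same limit at low counts. Cmc2-203 had 0 counts in all 3 I2-E2 libraries, against 33, 13 and 17 in NC, which is at least 6.39-fold lower when 3 counts per library are taken as the floor of a group at 0. Inpp5e-201 had 0 counts in I2-E2, against 10, 10 and 8 in NC, at least 2.85-fold lower by the same floor. Unc80-203 had 6, 15 and 15 counts in I2-E2, against 0 in all 3 NC libraries, at least 4.36-fold higher. Their adjusted p-values by edgeR ran from 0.175 to 0.457. Of the better covered ones, Suds3-202 was at 41.9, 55.7 and 46.6 CPM in I2-E2, against 24.0, 22.0 and 20.6 CPM in NC (log2 fold change 1.11, SE 0.19, adjusted p = 0.402), and Bmi1-202 was at 63.8, 76.7 and 74.0 CPM in I2-E2, against 112.1, 120.9 and 96.3 CPM in NC (-0.62, SE 0.096, adjusted p = 0.181). Patz1-202 and Ube2a-208 were near 0 in NC and at 0.52 to 8.94 CPM in I2-E2. Mean CPM of Patz1-202 was 13.9 in I0-E0, 5.09 in I0-E2 and 7.32 in I0-E4, beside 6.63 in I2-E2. In the same order the means were 3.73, 2.35, 4.39 and 2.18 for Ube2a-208, and 1.59, 0.825, 0.917 and 1.74 for Unc80-203. NC was thus below every exposed group for these transcripts. Suds3-202 lay between NC and I2-E2 at lower intensity, with means of 30.7, 38.1 and 40.3 CPM. For Cmc2-203, Inpp5e-201 and Bmi1-202 the I2-E2 mean was below that of each lower intensity group.

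The division of a gene between its transcripts was tested on its own with limma's diffSplice, which asks whether a transcript changed relative to the others of its gene. Of 7507 genes with at least 2 tested transcripts, 46 passed at an adjusted Simes p of 0.05 (0.613%), and 852 (11.35%) had an unadjusted p under 0.05. The second share was 9.405% to 12.46% in the other contrasts of the batch. The test takes the estimated counts as known and leaves out the uncertainty of assigning reads to transcripts, whose part in the calls was not tested. Against the same NC libraries the test called 8 genes in I0-E0, 8 in I0-E2 and 5 in I0-E4, and I2-E2 against I0-E0 and against I0-E2 gave 14 and 24.

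Among the 46 genes, the share of the leading transcript was higher in all 3 I2-E2 libraries than in all 3 NC libraries for 19, lower for 23, and overlapping for 4. The 46 were called on these same libraries, so the separation of the groups goes with the choice and adds no support to the calls. The gene as a whole barely differed, with a median absolute log2 fold change of 0.046, and 4 of the 46 had a gene-level edgeR p under 0.05 unadjusted. For 38 of the 46 leading transcripts under 5% of the words were their own, and for 15 at least 1 of the 6 libraries was at 0. Map7d2, Gnas, Bmi1 and Hnrnpl were called under all 9 alternative fits of the same Simes test. By diffSplice's F test on the same fit, 12 genes were called and Hnrnpl was not (adjusted p = 0.134). With 1 I2-E2 library left out, 13, 20 and 20 of the 46 were still called (replicates 1, 2 and 3 left out). Of the 46, Map7d2 was also called in I0-E0, I0-E2 and I0-E4 against NC, Gnas in I0-E0 and I0-E2, and Jph4 in I0-E4.

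Bmi1, a subunit of Polycomb repressive complex 1 (chromosome 2), divided between transcripts with the same coding sequence and different starts. Bmi1-201 took 73.6%, 68.3% and 68.4% of the gene in I2-E2, against 56.4%, 48.3% and 59.2% in NC, and Bmi1-202, which starts 3354 bases downstream, took 23.8%, 30.3% and 27.9% in I2-E2, against 40.8%, 47.0% and 37.9% in NC. The groups were apart for both (adjusted p = 3.9e-04 by diffSplice for the gene). In the lower intensity groups Bmi1-201 was within 51.5% to 58.9%, inside the NC range. Bmi1 as a gene shares sequence, with 71.9% of its words its own.

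Gnas, which encodes the alpha subunit of the stimulatory G protein (chromosome 2), had 20 tested transcripts. Gnas-206 took 4.96%, 3.30% and 4.41% of the gene in I2-E2, against 8.88%, 10.6% and 7.40% in NC. Hnrnpl, a splicing regulator (chromosome 7), gave 6.77%, 5.32% and 11.7% to Hnrnpl-202 in I2-E2, against 28.9%, 31.3% and 16.8% in NC. This transcript varied widely elsewhere: it took 12.1%, 38.8% and 30.4% in I0-E0 and 4.57%, 23.7% and 27.8% in I0-E4, so single libraries of other groups reached the I2-E2 level. Rcor2, a corepressor partner of the demethylase LSD1 (chromosome 19), behaved alike, with 10.0%, 7.44% and 5.38% for Rcor2-202 in I2-E2, against 23.1%, 36.9% and 21.6% in NC, and 9.5% to 34.0% in I0-E0.

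Metap2, a methionine aminopeptidase that removes the first residue of new proteins (chromosome 10), changed between transcripts that differ inside the coding sequence. Metap2-210 took 29.0%, 31.8% and 31.7% of the gene in I2-E2, against 46.4%, 53.8% and 39.9% in NC, and Metap2-208 took 33.6%, 29.9% and 29.4% in I2-E2, against 21.1%, 10.2% and 24.7% in NC. Both were apart (adjusted p = 0.0011 for the gene), and 90.8% of the words of the gene are its own, which makes it uncertain. They differ by 99 coding bases (33 codons) at chr10:93879574-93879672 of GRCm38, minus strand. These are in capitals in Metap2-210, and the capitals in Metap2-208 mark the bases around the joint.
Metap2-210: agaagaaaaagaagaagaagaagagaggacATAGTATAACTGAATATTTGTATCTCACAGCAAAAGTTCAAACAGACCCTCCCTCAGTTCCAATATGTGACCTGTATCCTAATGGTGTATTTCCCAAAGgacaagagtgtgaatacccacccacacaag
Metap2-208: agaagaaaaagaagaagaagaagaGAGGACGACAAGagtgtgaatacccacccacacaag

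Other called genes gave a larger share to their leading transcript in I2-E2. Suds3, a subunit of the SIN3 histone deacetylase complex, gave 24.6%, 31.05% and 29.4% to Suds3-202 in I2-E2, against 15.7%, 15.7% and 13.5% in NC. Jph4, a junctophilin of neurons that ties the plasma membrane to the endoplasmic reticulum, gave 29.1%, 28.2% and 27.1% to Jph4-202 in I2-E2, against 14.95%, 5.54% and 19.4% in NC. In I0-E4 Jph4-202 took 34.4%, 33.7% and 24.3%, as high as in I2-E2. Snx25, a sorting nexin, gave 61.7%, 50.8% and 76.6% to Snx25-203 in I2-E2, against 39.0%, 40.03% and 45.9% in NC.

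Syt6, a synaptotagmin, gave 6.25% ± 3.72 to Syt6-202 in I2-E2 and 24.8% ± 7.44 in NC (SD, n = 3 libraries each). Ptp4a2, a tyrosine phosphatase, gave 9.31% ± 9.33 to Ptp4a2-207 in I2-E2 and 36.1% ± 11.4 in NC, with 1 I2-E2 library at 0. Exo5, a DNA exonuclease, had 0 counts of Exo5-201 in all 3 I2-E2 libraries, against 27, 22 and 23 in NC, at least 7.38-fold lower by the floor. Apaf1-202, of the apoptosome scaffold Apaf1, had 0, 66 and 68 counts in I2-E2, against 224, 205 and 161 in NC. The plot of leading shares shows 11 of the genes with the smallest p.

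**Figure D5:**
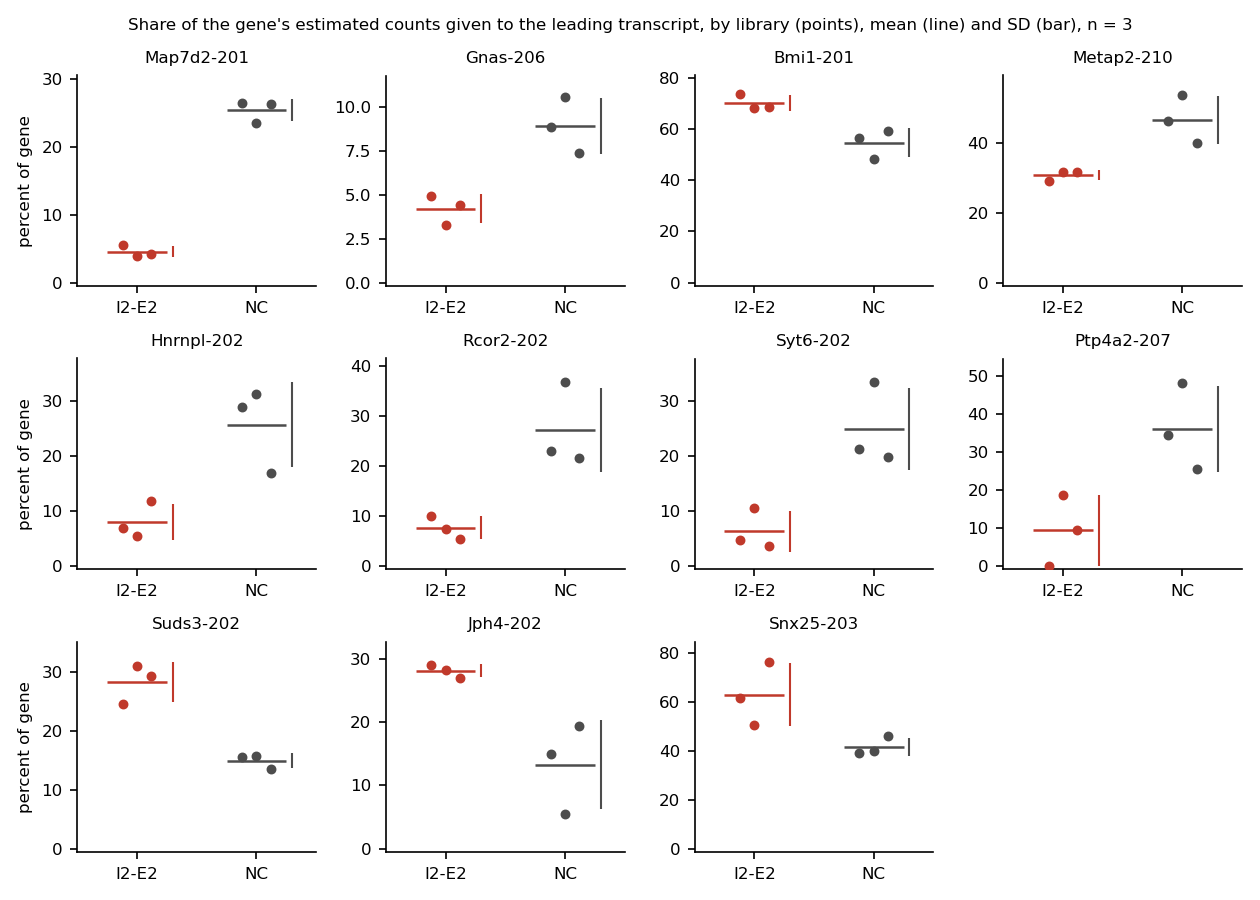
Percent of the gene's estimated counts given to the leading transcript (vertical axes) in each I2-E2 and NC library for 11 of the genes with the smallest diffSplice p, with the mean as a line and the SD as a bar (n = 3). The groups are apart in all 11 panels, which goes with the choice of genes by p on these libraries. Suds3-202 is at 24.6% to 31.05% in I2-E2, against 13.5% to 15.7% in NC.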

How the data were processed

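The libraries were bulk RNA-seq of whole wells. The authors ran Salmon, according to the submitters' processing notes, and deposited 2 measures per transcript. The deposited estimated counts are unscaled between libraries, and the deposited TPM is corrected for transcript length and library size. Its release, options, strand setting and genome build were not stated in the sources used. GENCODE vM21 (GRCm38) held 98.7% of the identifiers and gave names and 1-based coordinates, and the others took 0.634% to 0.683% of a library's counts and were dropped.

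Counts were summed per gene and rounded. All 15 libraries of batch 1 were fitted by group alone (filterByExpr with a minimum of 10, TMM, glmQLFit and glmQLFTest of edgeR 4.0.16, R 4.3.3), with 10 residual degrees of freedom, and p-values were adjusted by Benjamini-Hochberg over all features. The 5 libraries of batch 2 were not used. Transcript usage was tested with limma 3.58.1 (voom and diffSplice). limma-voom, limma-trend, DESeq2 1.42.0, other scalings and filters, 2 groups alone, a replicate block and leaving out each replicate were alternatives. The code was tested on simulated data. Intervals cover these libraries only.

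Named genes were the 10 (transcripts, 5) of smallest p in each direction without overlap, 32 markers, all usage calls, and the member of smallest p in each direction of each list. Other list members at an unadjusted p under 0.05, Fam220a and further usage genes' transcripts were named after their values were seen. Some results that this rule selects are not reported here. The comparison, lists and markers were chosen with earlier results of these data known. A gene shares sequence where under 95% of its 31-base words are its own.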

Additional observations from a re-analysis of the deposited data

How the results depend on the processing

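The 97 named genes gave 1260 values over the alternative settings, and 1222 of these values kept their direction and their side of the threshold. Another 14 passed an adjusted p of 0.05 without the filter, Crocc, Pnrc1, Lrrn3 and Mylip among them. The other 24, in 14 genes, changed sign from a log2 fold change of at most 0.21 in size. Genes called against NC stayed at 0 with other scalings, a minimum of 1 CPM, 2 groups alone and the other tools. Without the filter edgeR called 158 (114 higher, 106 sharing sequence), of which 146 passed the filter of the main fit. Leaving out a replicate gave 0 to 2 (Gm2436 and Gm2446, without NC replicate 1). Against I0-E2, no filter gave 125 genes and 2 groups alone gave 2 (mt-Nd5 and Fam220a). Against I0-E0, no filter gave 91, library totals gave 1 (Fam220a), and leaving out a replicate gave 0 to 1 (without I0-E0 replicate 3). Transcript calls were 0 with 2 groups alone, 116 with DESeq2, and 0 to 6 with a replicate left out. Usage calls were 12 by the F test, 33 with 2 groups alone, 40 at a minimum of 1 CPM, and 20 (without I2-E2 replicate 1) to 49 (without I2-E2 replicate 3) with a replicate left out. The cause of these differences was not tested.

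Same-numbered I2-E2 and NC libraries did not deviate together (correlations 0.098, -0.027 and -0.065), so the numbers were not read as pairs. A replicate block gave 0 genes and 0 transcripts against NC (Map7d2-201 -2.36, adjusted p = 0.146 by edgeR), 0 genes against I0-E2 and I0-E0, and 48 usage calls.

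With a replicate left out, the log2 fold changes that changed sign ran from -0.0517 to 0.0001 for Hsph1, -0.0929 to 0.0029 for Dnajb1, -0.0856 to 0.0433 for Gclm, -0.0156 to 0.0935 for Txnrd1, -0.183 to 0.0043 for Trib3, -0.0282 to 0.064 for Cdkn1a, -0.0338 to 0.0113 for Mdm2, -0.112 to 0.187 for Gadd45b, -0.117 to 0.0973 for Fos, -0.12 to 0.0454 for Txnip, -0.128 to 0.0367 for Mki67, -0.0184 to 0.0943 for Me1, -0.0461 to 0.363 for Snhg11 and -0.293 to 0.403 for Thy1, which was 0.0361 by limma-voom. Genes with an estimate beyond 1.5-fold had a median level of 1.66 CPM, and the part of depth in their fold changes was not tested.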
